A study of Mus musculus with 7 samples.

Results

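Expression of 10 genes that mark subsets of dendritic cells was examined in RNA sequencing libraries of mouse splenocytes depleted of CD43-bearing cells, a preparation that leaves mostly resting B cells. The 10 genes were taken by symbol from a table of 23845 rows, and each was found once with a complete value in every library. They comprise Siglech, Cox6a2, Pacsin1 and Runx2 for plasmacytoid dendritic cells, Clec9a, Xcr1 and Batf3 for the conventional subset called cDC1, Cd209a for the subset called cDC2, and Itgax and Zbtb46 for conventional dendritic cells in general. The 7 libraries came from C57Bl/6 mice: 3 labelled wild type, and 4 labelled as a conditional knockout (cKO) of the transcription factor gene Foxp1 by a Cre whose driver is a B cell gene. The labels give no control that carries the Cre, no age and no treatment. Separate animals are not stated in them either, so p-values rest on a spread between libraries that may be technical. The sequencing lane is also labelled. Lane 5 held wild type 2, wild type 3, cKO 1 and cKO 4, and lane 7 held wild type 1, cKO 2 and cKO 3.

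Dendritic cells are the main antigen-presenting cells of the spleen and arise from bone marrow precursors under the growth factor receptor FLT3. Plasmacytoid dendritic cells respond to viral nucleic acids with type I interferon and depend on the E protein TCF4, while cDC1 cells take up dead cells and cross-present antigen to CD8 T cells under the control of IRF8 and BATF3, and cDC2 cells present antigen to CD4 T cells. A magnetic depletion of CD43 is meant to remove most cells other than resting B cells, and the cell source of these transcripts was not tested. In such bulk RNA, a smaller number of cells of a type and less RNA per cell cannot be told apart.

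Values are FPKM, fragments per kilobase of transcript scaled to all mapped fragments, and are comparable between genes because they are divided by length. A value with ± is the mean and SD of the 3 wild type (n = 3) or the 4 cKO libraries (n = 4). Fold changes are log2 differences of cKO over wild type on log2(FPKM + 0.5), and a gene is called at a limma adjusted p under 0.05 over all 10065 genes tested, those with a mean of at least 1 FPKM. The B cell genes Cd79b and Ms4a1 were the most abundant of the 10 B cell markers examined, at 1091.5 ± 45.5 and 572.5 ± 35.8 FPKM in wild type and 653 ± 81.6 and 421.4 ± 82.4 in cKO. Foxp1 itself was 38.1 ± 4.66 FPKM in wild type and 21.9 ± 4.90 in cKO, a log2 fold change of -0.81 that was not called (limma adjusted p = 0.159). Its groups did not overlap, and 2.14% of all 10065 genes tested were likewise lower in cKO without overlap. With lane in the fit Foxp1 was called lower (-0.75, limma adjusted p = 0.0104). Many genes differed between lanes: with lane and genotype in the same fit, 6733 of 10065 genes tested did so. Read depth was estimated from the smallest steps of the values, and by that estimate the dendritic genes rested on between 10.3 fragments per library (Cox6a2 in wild type 2) and 3771.9 (Itgax in cKO 4).

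Mean levels of 9 of the 10 genes were 2.22 (Batf3) to 4.13 (Runx2) times as high in cKO as in wild type, and that of Pacsin1 was 0.918 times as high. In the fit without covariates limma called 0 of the 9 genes tested, where 1.27% of all genes were called higher. In the fit that takes lane into account it called 7 higher (Siglech, Clec9a, Xcr1, Batf3, Cd209a, Itgax and Zbtb46), where 9.59% of all genes were. Xcr1 and Cox6a2, with wild type means under 1 FPKM, reached the required mean through their cKO libraries, so they entered the test because they were high there, and the counts are a description.

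Promoter sequences are shown for Siglech, Xcr1 and Itgax, 1 gene each of the plasmacytoid, cDC1 and general conventional groups. The matches marked in them are of 3 different motifs. E-box matches (CANNTG) in the Siglech and Xcr1 windows are not marked. They are the 250 bases before the annotated start from RefSeq (GRCm38.p6), 5′ to 3′ on the strand of the gene, at chr7:55767934-55768183, plus strand for Siglech, chr9:123862030-123862279, minus strand for Xcr1 and chr7:128129300-128129549, plus strand for Itgax. Capitals mark the letters TGTGGT (bound by RUNX factors) on either strand in Siglech, TGTTTA (the core bound by forkhead factors) on either strand in Xcr1, and TGANTCA (bound by AP-1 dimers of the BATF and JUN families) in Itgax.
Siglech: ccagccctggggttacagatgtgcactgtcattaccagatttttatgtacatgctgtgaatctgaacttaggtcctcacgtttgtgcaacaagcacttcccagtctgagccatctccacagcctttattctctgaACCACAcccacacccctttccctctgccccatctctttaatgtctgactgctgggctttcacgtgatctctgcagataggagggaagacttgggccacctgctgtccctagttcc
Xcr1: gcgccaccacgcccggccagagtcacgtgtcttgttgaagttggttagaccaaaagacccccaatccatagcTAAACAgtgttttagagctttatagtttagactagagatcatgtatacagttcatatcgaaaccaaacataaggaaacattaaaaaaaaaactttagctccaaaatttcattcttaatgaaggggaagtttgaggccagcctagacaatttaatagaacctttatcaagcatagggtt
Itgax: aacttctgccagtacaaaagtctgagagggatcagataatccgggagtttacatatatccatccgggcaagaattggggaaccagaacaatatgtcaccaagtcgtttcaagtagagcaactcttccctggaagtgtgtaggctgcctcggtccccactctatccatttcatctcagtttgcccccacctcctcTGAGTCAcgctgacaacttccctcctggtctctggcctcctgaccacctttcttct
RefSeq gave such a window for 9 of the 10 genes. For Zbtb46 and Pacsin1 the RefSeq start lies well inside the interval that the deposited table gives, for Runx2 part of the window with its RUNX match does, and for Siglech the last few bases do, so these windows need not precede the start in use. TGANTCA lay in 2 of the 9, Itgax and Zbtb46, where 6.75% of 32851 promoters of the same length held it on either strand. TGTGGT lay in 3 of the 9 (Siglech, Runx2 and Pacsin1) against 14.0% of all, TGTTTA in 1 of the 9 against 12.0%, the E-box CANNTG, which reads the same on both strands and is bound by E proteins such as TCF4, in 7 of the 9 against 66.2%, and the ETS and IRF composite (GGAA and GAAA parted by 2 bases) in 0 of the 9 against 2.30%. The RUNX match of Runx2 overlaps an E-box. A match describes the letters only.

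Siglech encodes Siglec-H, a surface lectin of mouse plasmacytoid dendritic cells that signals through the adaptor TYROBP (chromosome 7, 55768178 to 55778833). Its level was 0.644, 1.64 and 2.37 FPKM in wild type libraries 1 to 3 and 11.5, 2.70, 1.35 and 7.86 FPKM in cKO 1 to 4. The cKO libraries of lane 5 stood above every wild type library, as did cKO 2 of lane 7, whereas cKO 3 lay within the wild type range, so the groups overlapped. Siglech had a log2 fold change of 1.37 (SE 0.64), which missed the threshold (limma adjusted p = 0.507). Once lane entered the fit the value was 1.65 (SE 0.26), and Siglech was called higher in cKO (limma adjusted p = 0.00171). Its mean level in cKO was 4.84 times that in wild type within lane 5 and 3.15 times within lane 7.

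Cox6a2 encodes the heart and muscle form of a cytochrome c oxidase subunit, which plasmacytoid dendritic cells also express (chromosome 7, 128205435 to 128206366). It was listed at 0.318, 0.337 and 0.774 FPKM in wild type libraries 1 to 3 and at 3.38, 0.680, 0.499 and 1.41 FPKM in cKO 1 to 4. The order of the cKO libraries was that of Siglech, with cKO 1 highest and cKO 3 lowest. The log2 fold change was 0.85 (SE 0.46, limma adjusted p = 0.607), and 1.00 (SE 0.29) with lane in the fit (limma adjusted p = 0.0521). With the lane as a term Cox6a2 was called higher when wild type 1, wild type 3 or cKO 4 was left out (limma adjusted p = 0.0169, 0.0281 and 0.0390), but it was in the tested set through its cKO values. Its ubiquitous relative Cox6a1 stood at 112.9 ± 2.54 FPKM in wild type and 132.0 ± 26.8 in cKO, a fitted difference of 0.20 (SE 0.22, limma adjusted p = 0.918).

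Runx2, a RUNX transcription factor known for bone formation and for the egress of plasmacytoid dendritic cells from the bone marrow (chromosome 17, 44495987 to 44814797), was the lowest of the 10 genes. It was 0.0746, 0.208 and 0.344 FPKM in wild type libraries 1 to 3 and 1.35, 0.704, 0.347 and 1.06 in cKO 1 to 4. The groups did not overlap, although cKO 3 exceeded wild type 3 by a margin far under the spread within either group. Runx2 did not reach the mean of 1 FPKM required for the test. In the fit without that filter its log2 fold change was 0.90 (SE 0.30, limma adjusted p = 0.408), and 1.00 (SE 0.17) with lane in the fit (limma adjusted p = 0.0886). Of the alternatives run, Runx2 passed only when libraries were centred on their medians in that unfiltered table (0.71, limma adjusted p = 0.0381, and 0.80 with lane added, limma adjusted p = 0.00103).

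Pacsin1, an adaptor of endocytosis known from neurons and from plasmacytoid dendritic cells (chromosome 17, 27655682 to 27711106), departed from the other 9 genes. It stood at 2.37, 4.44 and 3.98 FPKM in wild type libraries 1 to 3 and at 4.32, 1.48, 2.04 and 5.37 FPKM in cKO 1 to 4. Both lane 7 cKO libraries lay below the wild type library of that lane, and in lane 5 the genotypes overlapped. The log2 fold change was -0.21 (SE 0.42, limma adjusted p = 0.938), turned to 0.18 in lane 5 alone and to 0.06 without cKO 2, and was -0.04 with the lane term, with a 95% confidence interval of -0.43 to 0.36. That interval does not reach the lower bound of 1.07 for Siglech in the same fit. The difference between the 2 genes was not tested.

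Clec9a encodes DNGR-1, a receptor of cDC1 cells for actin exposed on dead cells (chromosome 6, 129408862 to 129424764). It was 1.03, 0.854 and 1.32 FPKM in wild type libraries 1 to 3 and 3.65, 1.81, 2.16 and 4.11 FPKM in cKO 1 to 4. Every cKO library exceeded every wild type library. Clec9a had a log2 fold change of 1.08 (SE 0.31, limma adjusted p = 0.170), and 1.16 (SE 0.20) with lane in the fit (limma adjusted p = 0.00316).

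Xcr1 encodes the chemokine receptor by which cDC1 cells sense XCL1 (chromosome 9, 123852315 to 123862029). Its level was 0.843, 0.896 and 1.24 FPKM in wild type libraries 1 to 3 and 3.51, 1.48, 2.65 and 4.54 FPKM in cKO 1 to 4. As for Clec9a, the groups did not overlap. The log2 fold change was 1.18 (SE 0.34, limma adjusted p = 0.173), and 1.28 (SE 0.22) with lane in the fit (limma adjusted p = 0.00282). The ratio of Clec9a to Xcr1 FPKM stayed between 0.817 and 1.23 over the 7 libraries, while Xcr1 itself ranged 5.39-fold.

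Batf3, the AP-1 family factor on which cDC1 cells depend (chromosome 1, 191098414 to 191108943), stood at 2.77, 5.17 and 4.33 FPKM in wild type libraries 1 to 3 and at 10.2, 5.09, 7.08 and 14.0 FPKM in cKO 1 to 4. The groups overlapped by a small margin, between wild type 2 and cKO 2. Its log2 fold change was 1.01 (SE 0.36, limma adjusted p = 0.321), and 1.15 (SE 0.18) with lane in the fit (limma adjusted p = 0.00150). Its relative Batf, which lymphocytes use, had a log2 fold change of -0.23 (SE 0.26, limma adjusted p = 0.918).

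Cd209a encodes a C-type lectin of the DC-SIGN family found on cDC2 and monocyte-derived dendritic cells (chromosome 8, 3743395 to 3748984). It was 2.01, 2.67 and 4.16 FPKM in wild type libraries 1 to 3 and 12.4, 3.93, 3.65 and 14.9 FPKM in cKO 1 to 4. The lane 5 cKO libraries were the high ones, and both lane 7 cKO libraries lay below wild type 3. Its log2 fold change was 1.22 (SE 0.51, limma adjusted p = 0.440), and 1.43 (SE 0.23) with lane in the fit (limma adjusted p = 0.00208). Reads of Cd209a may be shared with related genes of its cluster. Of these, Cd209d was called higher with the lane term (1.34, limma adjusted p = 0.00497), but it entered the test through its cKO libraries. It stood at 0.754 ± 0.334 FPKM in wild type and 2.61 ± 1.63 in cKO. Cd209b, Cd209c, Cd209e and Cd209f were at or under 0.535 FPKM in every library.

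Itgax encodes CD11c, the integrin chain by which dendritic cells are commonly sorted, also present on some macrophages, NK cells and B cells (chromosome 7, 128129568 to 128150657). It was the most abundant of the 10 genes on average, at 2.46, 5.36 and 5.69 FPKM in wild type libraries 1 to 3 and 15.5, 5.48, 7.34 and 23.5 FPKM in cKO 1 to 4. Only cKO 2 lay within the wild type range. The log2 fold change was 1.29 (SE 0.50, limma adjusted p = 0.386), and 1.51 (SE 0.19) with lane in the fit (limma adjusted p = 0.000694).

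Zbtb46, a zinc finger factor of conventional dendritic cells that endothelial and some erythroid cells also express (chromosome 2, 181390886 to 181459426), was 1.08, 1.90 and 2.07 FPKM in wild type libraries 1 to 3 and 5.44, 2.16, 3.18 and 8.22 FPKM in cKO 1 to 4. Every cKO library exceeded every wild type library, by little in cKO 2. The log2 fold change was 1.15 (SE 0.42, limma adjusted p = 0.326), and 1.32 (SE 0.20) with lane in the fit (limma adjusted p = 0.00147). Zbtb46 and Itgax kept a ratio of FPKM between 0.349 and 0.438 in all 7 libraries.

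**Figure D1:**
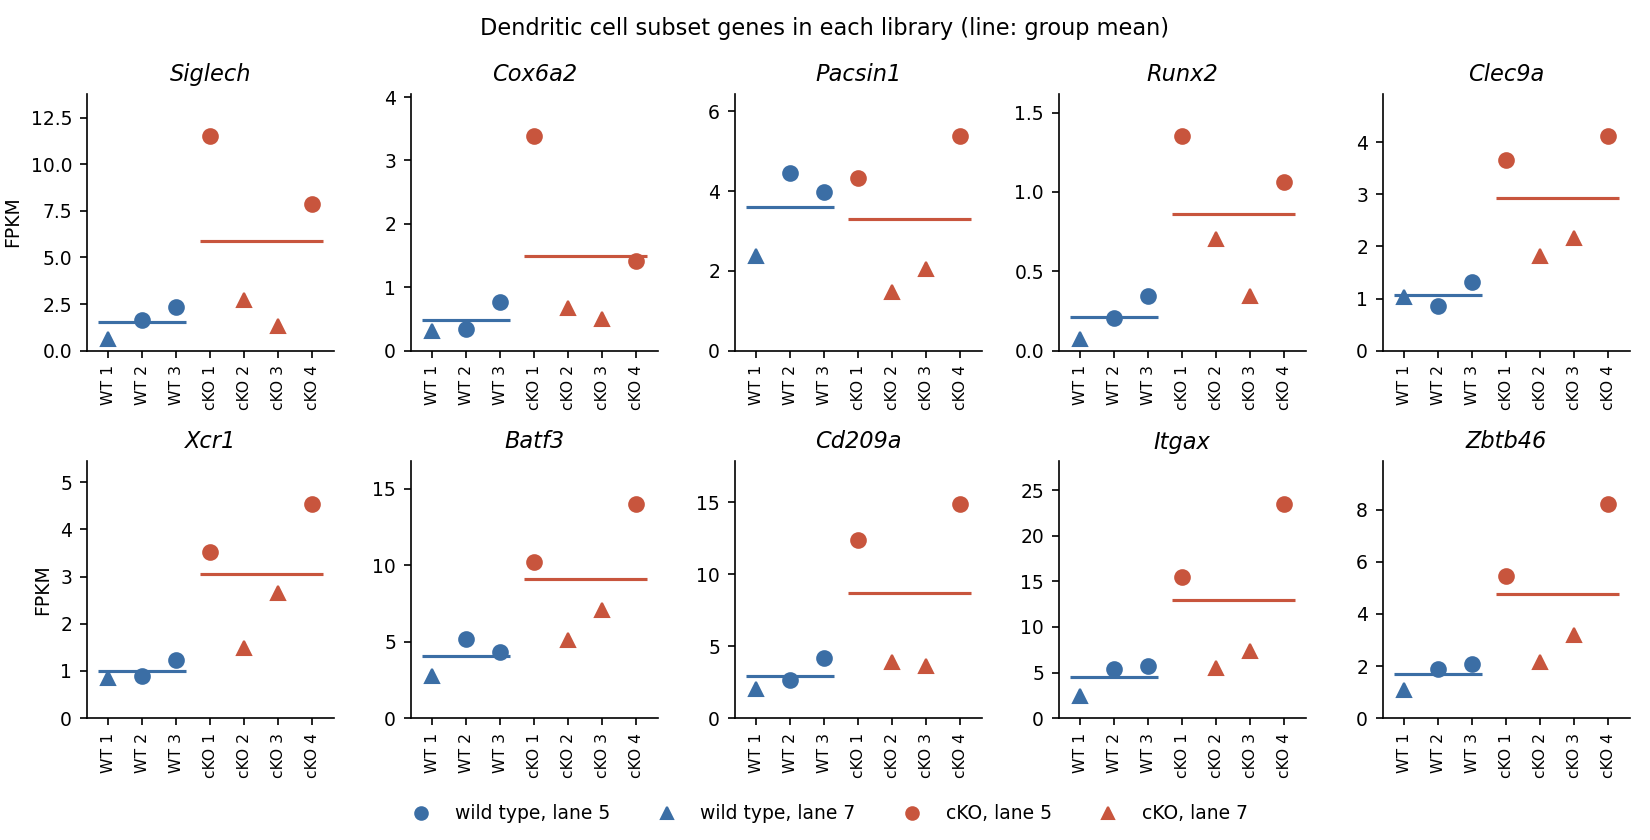
FPKM of each of the 10 genes (vertical axes, linear, each panel from 0) in the 3 wild type (blue) and 4 cKO (red) libraries (horizontal axes), with circles for lane 5, triangles for lane 7 and a line at the group mean. In 9 panels the cKO circles lie above the wild type circles and the cKO triangles above the wild type triangle, and Pacsin1 is the exception.

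Over the 9 genes tested, 0 were called different between the genotypes in the fit without a covariate, where 1.27% of the 10065 genes tested were called higher in cKO by limma and 0.0497% lower. At an unadjusted limma p under 0.05, 6 of the 9 were higher, against 9.56% of all genes tested higher and 1.10% lower. The median log2 fold change of the 9 was 1.15, against -0.09 over all genes tested, and 9 of the 10 genes had a positive fold change, against 38.5% of all genes tested. Of the 10 genes, 4 had groups that did not overlap (Clec9a, Xcr1, Zbtb46 and Runx2), all higher in cKO, against 7.99% of genes tested higher and 2.14% lower. A two-sided exact permutation test (35 arrangements) gave each of these 4 a p of 0.0571, the smallest value it can give, so this design cannot reach 0.05. For the other genes the same exact test gave p from 0.114 (Batf3 and Itgax) to 0.686 (Pacsin1). The count of genes without overlap was 7 when wild type 3 was left out, where 8.63% of genes tested were higher without overlap and 3.12% lower. Centring each library on its median called 4 of the 9 (Clec9a, Xcr1, Batf3 and Zbtb46), where 2.31% of all genes were called higher and 0.705% lower, and quantile normalization called 1 (Batf3), against 1.36% higher and 0.288% lower.

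In the fit that includes lane, limma called 7 of the 9 tested genes higher in cKO and 0 lower, against 9.59% and 1.19% of all genes tested. Cox6a2 and Pacsin1 were the 2 not called. The median log2 fold change of the 9 was then 1.28, against 0.00 over all genes tested, of which 49.6% had a positive fold change. Lane 5 alone, with 2 libraries of each genotype, called the same 7 genes (5.83% of all genes tested were called higher and 0.248% lower), and lane 7 alone, with 1 wild type library and so no wild type spread of its own, called Siglech (2.45% of all higher and 0.358% lower). Leaving out any library from the fit with the lane term called 7 or 8 of the 9, the eighth being Cox6a2. Those fits called 653 to 1417 of the 10065 genes tested higher in cKO and 41 to 583 lower. Whether the lanes also differ in preparation is not labelled, and the lane term was an alternative to the fit without covariate.

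**Figure D2:**
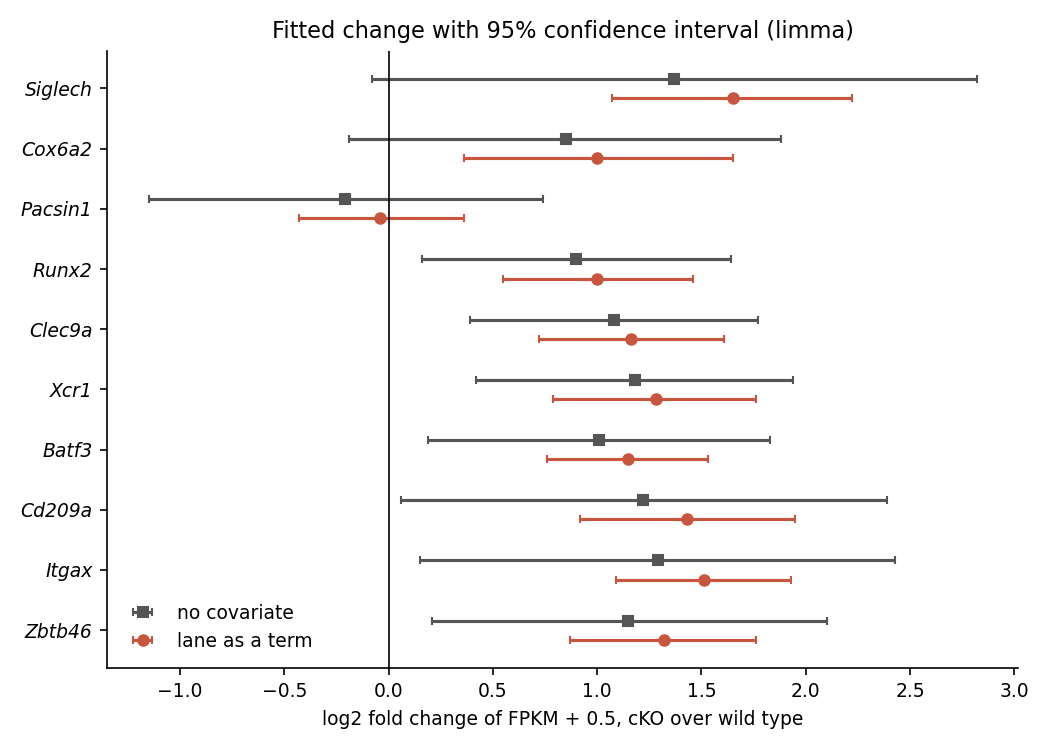
Log2 fold change of FPKM + 0.5 in cKO over wild type (horizontal axis) for the 10 genes, as fitted by limma over all libraries without a covariate (grey squares) and with lane in the fit (red circles), with 95% confidence intervals. Intervals with the lane term lie above 0 for all genes but Pacsin1, whose interval is -0.43 to 0.36. Runx2 comes from fits without the filter on low values.

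Within each lane the genotypes separated for the same 9 genes. In lane 5 both cKO libraries exceeded both wild type libraries in 9 of the 10 genes, against 32.2% of genes tested. In lane 7 both cKO libraries exceeded the wild type library in 9 of the 10, against 26.7%, and 9 of the 10 did so in both lanes, against 19.2%. Within lane 5 the ratio of the cKO to the wild type mean lay between 2.54 (Batf3) and 4.84 (Siglech) for those 9 genes, and within lane 7 between 1.86 (Cox6a2) and 7.05 (Runx2, where the wild type level was 0.0746 FPKM). By ratio of means the Runx2 difference was larger in lane 7 (7.05) than in lane 5 (4.35). The fitted log2 scale understates the change of low genes. The share of all genes with a lower signed fitted difference in lane 7 was not counted. For Pacsin1 the fitted difference turned from 0.18 in lane 5 to -0.35 in lane 7. On the fitted scale the signed difference was lower in lane 7 for all 10 genes, by 0.25 (Batf3) to 1.10 (Cd209a). The limma adjusted p of the lane by genotype interaction was at least 0.992 for each. Among them Cd209a alone had an unadjusted limma p under 0.05, where 2.12% of genes tested did.

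Levels also differed between lanes, over all genes tested as well. The median log2(FPKM + 0.5) of the genes tested was 2.672 in wild type 1 of lane 7, against 3.068 and 3.043 in wild type 2 and 3. In cKO 2 and cKO 3 of lane 7 it was 2.523 and 2.779, against 3.114 and 3.327 in cKO 1 and cKO 4. The part of this general shift in the lane differences of the dendritic genes was not tested. At matched genotype all 9 tested genes were lower in lane 7 (limma adjusted p from 0.000452 for Itgax to 0.0458 for Clec9a), against 58.2% of genes tested. The log2 difference was -1.67 (SE 0.26) for Siglech, -1.32 (SE 0.19) for Itgax, -1.27 (SE 0.23) for Cd209a and -1.03 (SE 0.18) for Pacsin1, and smaller for the cDC1 genes, at -0.83 for Batf3, -0.60 for Xcr1 and -0.51 for Clec9a. The order of these lane differences between genes was not tested.

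**Figure D3:**
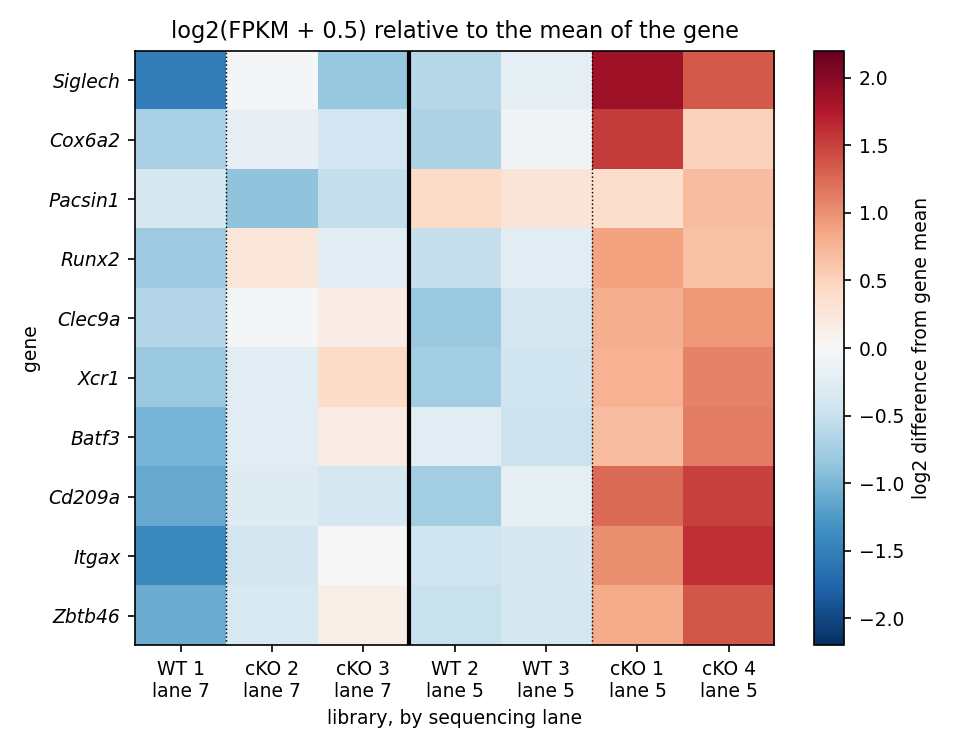
Log2(FPKM + 0.5) of the 10 genes (rows) in each library (columns, lane 7 left and lane 5 right of the thick line), as the difference from the mean of the gene over the 7 libraries. The highest value of every gene lies in cKO 1 or cKO 4, both of lane 5. In lane 7 wild type 1 is lowest for every gene but Pacsin1.

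The genes fell into patterns by library. By the root mean square distance between log2 profiles centred on each gene's mean, Clec9a lay closest to Xcr1 and Batf3 to Zbtb46 (0.16 each), then Itgax to Zbtb46 (0.18), and Pacsin1 lay farthest from Siglech (0.94). Siglech, Cox6a2 and Runx2 were highest in cKO 1, and the other 7 genes in cKO 4. The ratio of Siglech to Xcr1 FPKM was 0.764, 1.83 and 1.92 in wild type libraries 1 to 3 and 3.27, 1.83, 0.511 and 1.73 in cKO 1 to 4. It was thus highest in cKO 1 and lowest in cKO 3, and the genotypes overlapped. The ratio of Siglech to Itgax likewise ran from 0.185 in cKO 3 to 0.741 in cKO 1. Over the 7 libraries Runx2 and Siglech ranged 18.0-fold and 17.9-fold, Cox6a2 10.6-fold, the 6 conventional genes 4.82-fold (Clec9a) to 9.58-fold (Itgax), and Pacsin1 3.63-fold. With 7 libraries that share lanes these likenesses are a description.

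By mean level in wild type the genes ran from Itgax (4.50 FPKM), Batf3 (4.09), Pacsin1 (3.60) and Cd209a (2.94) through Zbtb46 (1.68), Siglech (1.55), Clec9a (1.07) and Xcr1 (0.991) to Cox6a2 (0.476) and Runx2 (0.209). Neighbours in the order differed by less than the SD of at least 1 of them (0.213 to 1.78 FPKM from Itgax to Xcr1), apart from Cd209a over Zbtb46, Xcr1 over Cox6a2 and Cox6a2 over Runx2. In cKO the order was Itgax (13.0 FPKM), Batf3 (9.08), Cd209a (8.71), Siglech (5.86), Zbtb46 (4.75), Pacsin1 (3.30), Xcr1 (3.05), Clec9a (2.93), Cox6a2 (1.49) and Runx2 (0.863). Pacsin1 thus stood below Cd209a, Siglech and Zbtb46 in cKO and above them in wild type, and its SD in cKO was 1.85 FPKM and that of Siglech 4.70. Neighbours in cKO also lay within the SD of at least 1 of the pair, apart from Clec9a over Cox6a2.

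Further genes were examined as 6 lists with 99 genes, of which 83 were tested: 4 lists of dendritic genes, 1 of partners and 1 of relatives, which need not be dendritic. Without a covariate limma called 5 of them higher and 0 lower in cKO: Lair1, Sirpa, Ckb, Tyrobp and Siglece. Over all genes tested it called 1.27% higher and 0.0497% lower, and 38.5% had a positive fold change. Tested list genes with wild type means under 1 FPKM, such as Siglece (0.802 FPKM), entered the test through their cKO libraries. Counts over the lists are therefore a description. The fit with lane called 40 higher and 3 lower (Ly6d, Ccr6 and Syk), against 9.59% and 1.19% of all genes tested. The same shares apply to the counts of each list below. The count of 5 changed with the libraries used. It was 0 when wild type 2, wild type 3 or any cKO library was left out and 11 without wild type 1. With a library left out, 22 to 37 of the 83 list genes had an unadjusted limma p under 0.05, against 32 in the main fit. The 133 calls over all genes likewise became 220, 1 and 0 without wild type 1, 2 and 3, and 0 without any cKO library. In those limma fits 608 to 1967 genes had an unadjusted p under 0.05. The split of 128 higher and 5 lower became 233 and 71 when libraries were centred on their medians, and 952 and 1276 when the lane term was added to that.

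Of 19 other plasmacytoid genes tested, 1 was called higher and 0 lower, with 12 positive fold changes and a median of 0.55. Lair1, an inhibitory collagen receptor of many leukocytes, rose from a wild type level of 2.70 ± 0.598 to 7.05 ± 1.05 FPKM, a log2 fold change of 1.24 (SE 0.24, limma adjusted p = 0.0484). Lag3, a receptor that binds MHC class II, and Ly6c2, a surface protein shared with monocytes, had fitted log2 changes of 1.06 and 1.72 (limma adjusted p = 0.0839 and 0.116). With lane in the fit 9 of the 19 were called higher and 1 lower. Named outside the rule, after their values were seen, Ccr9, Klk1 and Klra17, which mark plasmacytoid dendritic cells in mice, were not called without a covariate (0.78, 1.14 and 1.36, limma adjusted p = 0.623, 0.607 and 0.326) and were called higher with lane in the fit (0.95, 1.41 and 1.58, limma adjusted p = 0.0149, 0.00147 and 0.000603). Lag3, Ccr9 and Klk1, with wild type means of 0.436, 0.546 and 0.795 FPKM, entered the test through their cKO libraries. Bcl11a, Tlr9 and Slc15a4 had -0.54, -0.18 and -0.27 without a covariate and were called in neither fit. The transcription factor genes Tcf4 and Spib, which B cells also express, had fitted log2 changes of -0.16 (SE 0.35) and -0.23 (SE 0.34), and -0.02 and -0.09 with lane in the fit. Ly6d, abundant in B cells, was the 1 gene of this list called lower with lane in the fit, at -0.90 (SE 0.23, limma adjusted p = 0.0296). Ptcra, of the same list, was at or under 0.0155 FPKM in every library.

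Of 15 other cDC1 genes tested, 0 were called by limma without a covariate, 6 had an unadjusted p under 0.05, 13 had a positive fold change and the median was 0.89. Cadm1, an adhesion molecule of cDC1 cells and of other tissues, stood at 2.62 ± 1.55 FPKM in wild type and 8.69 ± 1.87 in cKO, a log2 fold change of 1.65 (SE 0.34, limma adjusted p = 0.0597). Id2, an inhibitor of E proteins needed for cDC1 and NK cells, had 1.36 (limma adjusted p = 0.103) and the sorting nexin gene Snx22 1.69 (limma adjusted p = 0.214). With the lane as a term 10 of the 15 were called higher and 0 lower. Irf8, the cDC1 regulator that B cells also express, had a log2 fold change of -0.22 (SE 0.30).

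Of 12 other cDC2 genes tested, 1 was called higher and 0 lower, with 10 positive fold changes and a median of 0.98. Sirpa, the CD47 receptor of cDC2 cells and macrophages, rose from 12.5 ± 3.45 to 41.6 ± 8.94 FPKM, a log2 fold change of 1.70 (SE 0.26, limma adjusted p = 0.0447). The C-type lectin genes Clec4a2 and Clec4a4 had fitted log2 changes of 1.52 and 1.23 (limma adjusted p = 0.0910 and 0.138). Clec4a4 marks cDC2 cells of the mouse spleen, and it was 1.60 ± 0.343 FPKM in wild type and 4.61 ± 1.89 in cKO without overlap. With the lane as a term 6 of the 12 were called higher and 0 lower.

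Of 13 other genes of conventional and mature dendritic cells tested, 1 was called higher and 0 lower, with 8 positive and a median of 0.10. Ckb, a creatine kinase, rose from 3.57 ± 1.34 to 13.4 ± 2.80 FPKM, a log2 fold change of 1.80 (SE 0.28, limma adjusted p = 0.0447). The costimulatory ligand gene Cd86 and the cystatin gene Cst3 had fitted log2 changes of 0.94 and 0.85 (limma adjusted p = 0.105 and 0.212). Flt3, the receptor that dendritic cell precursors and dendritic cells depend on, was 3.32, 5.16 and 4.57 FPKM in wild type libraries 1 to 3 and 13.5, 4.52, 6.18 and 19.4 FPKM in cKO 1 to 4, with the lane 5 cKO libraries highest. Its log2 fold change was 1.04 (SE 0.47, limma adjusted p = 0.479), and 1.23 with lane in the fit (limma adjusted p = 0.00517). The gene of its ligand, Flt3l, had -0.14 (SE 0.27). Ciita, Btla and Ccr6, which B cells express as well, had -0.69, -0.45 and -1.17.

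Among 11 partners of the proteins of the 10 genes, 1 was called higher and 0 lower, with 6 positive and a median of 0.22. Tyrobp, the adaptor of Siglec-H and of many myeloid and NK receptors, rose with a log2 fold change of 1.39 (SE 0.22, limma adjusted p = 0.0447). Xcl1, the ligand of XCR1 made by NK and T cells, was 1.79 ± 0.752 FPKM in wild type and 7.48 ± 4.39 in cKO, with no overlap (log2 fold change 1.67, limma adjusted p = 0.173). Itgb2, the integrin chain that pairs with CD11c, had 0.70 (limma adjusted p = 0.360). Syk, a kinase downstream of DNGR-1 and of the B cell receptor, had -0.81 (SE 0.36, limma adjusted p = 0.482), and Jun, Junb and Jund had 0.22, -0.24 and -0.16. Among 13 tested relatives of the 10 genes, 1 was called higher and 0 lower, with 10 positive and a median of 0.31. The inhibitory lectin gene Siglece rose by 1.78 (SE 0.28, limma adjusted p = 0.0447), and Clec7a, the receptor Dectin-1, and Itgam, the CD11b chain, had 1.60 and 1.53 (limma adjusted p = 0.0551 and 0.105). The relatives Runx1 and Runx3 of Runx2 had 0.14 and -0.10, and Pacsin2 0.31.

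**Figure D4:**
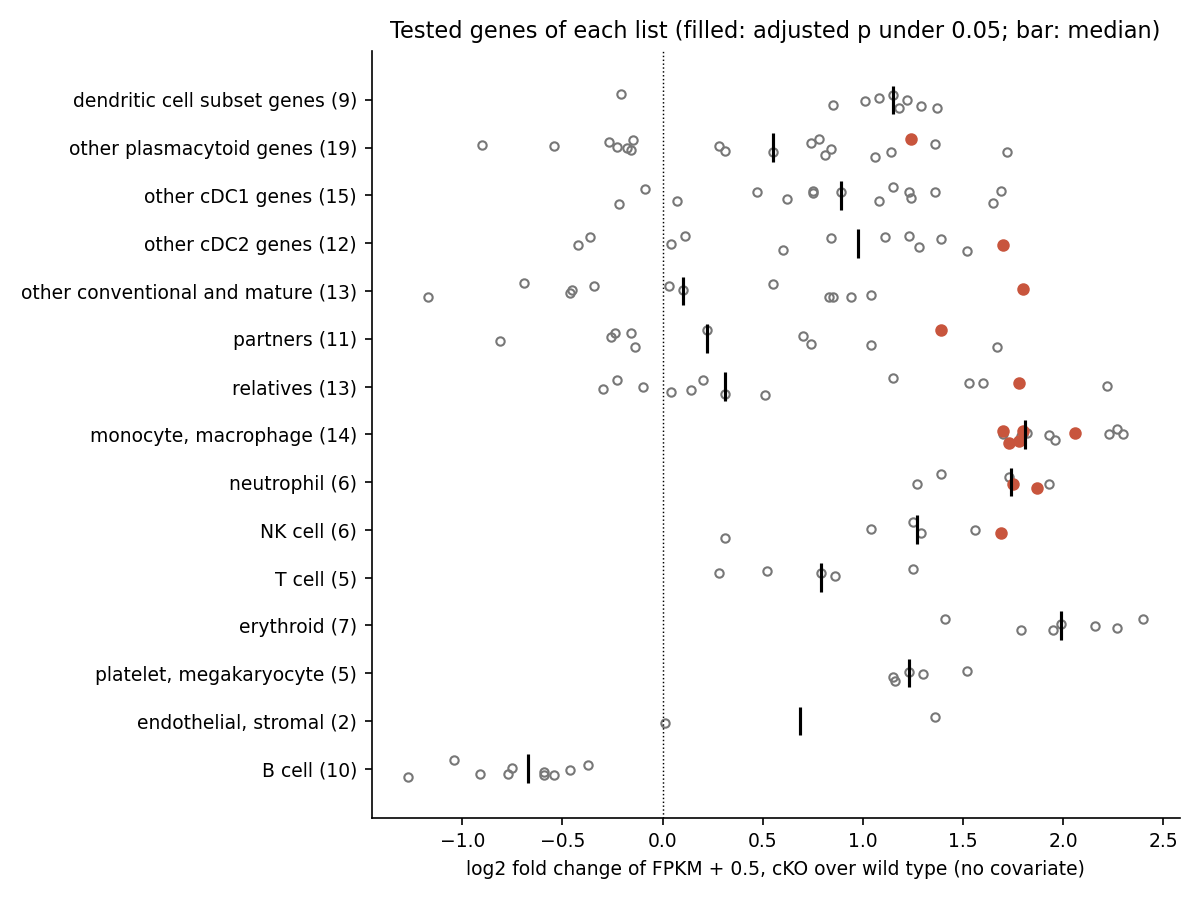
Log2 fold change in cKO over wild type, fitted without a covariate (horizontal axis), for each tested gene of the dendritic lists and of lists of other cell types (rows, number tested in parentheses). Filled points have a limma adjusted p under 0.05 over all genes, and the bar is the median, 1.15 for the 10 dendritic cell subset genes (9 tested), 1.81 for monocytes and macrophages and -0.67 for B cells.

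Markers of other cell types were also higher on average in the cKO libraries. Over all genes tested, 38.5% had a positive fold change and 1.27% were called higher. In the monocyte and macrophage list 14 of 14 tested genes had a positive fold change and 5 were called higher, and the summed level of the list was 159.1 to 387.3 FPKM in wild type and 661.0 to 977.2 in cKO, with no marker under 0.1 FPKM in all libraries. Of its most abundant genes, Lyz2 had a fitted log2 change of 1.80 (limma adjusted p = 0.0447) and C1qa 2.23 (limma adjusted p = 0.179). In the other 6 lists every tested gene was positive (NK 6, neutrophil 6, T cell 5, platelet 5, erythroid 7, endothelial and stromal 2), and limma called 2 neutrophil genes and 1 NK gene. Some genes called in the macrophage and neutrophil lists had wild type means under 1 FPKM and entered the test through their cKO libraries. The summed NK level was 15.0 to 17.2 FPKM in wild type and 32.2 to 67.4 in cKO, and its log2 fold changes included 1.69 for Gzma (limma adjusted p = 0.0447) and 1.56 for Klrd1. The neutrophil sum was 27.4 to 40.3 and 84.6 to 188.0 FPKM, with 1.87 for S100a8 (limma adjusted p = 0.0447) and 1.73 for S100a9. Sums of the T cell list overlapped, at 4.16 to 15.6 and 7.77 to 37.9 FPKM, with 1.25 for Cd4 and 0.86 for Cd3g. So did those of the erythroid list (56.1 to 575.3 and 65.6 to 1544.5 FPKM, with 1.41 for Alas2, haemoglobin genes not included), of the endothelial and stromal list (35.8 to 40.5 and 27.3 to 64.8 FPKM, with 1.36 for Stab2 and 0.01 for Pecam1, and Emcn under 0.1 FPKM throughout) and, by a small margin, of the platelet list (21.0 to 38.3 and 38.0 to 111.3 FPKM, with 1.52 for Tubb1 and 1.16 for Ppbp). All 10 B cell genes were lower on average in cKO without being called (median -0.67, limma), 3 were called lower with the lane term, and their summed level was 2218.9 to 2636.2 FPKM in wild type and 1300.6 to 2071.4 in cKO. The part of these other cells in the values of the 10 genes was not tested.

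The dendritic genes and the macrophage genes differed in their pattern over lanes. The mean log2(FPKM + 0.5) of the macrophage list was 3.79 in wild type 1 of lane 7 and 2.51 and 2.21 in wild type 2 and 3 of lane 5, while that of the cDC1 genes Clec9a, Xcr1 and Batf3 was 0.92, 1.14 and 1.31 in the same libraries. In cKO 1 to 4 the macrophage value was 4.36, 4.81, 5.17 and 4.69 and the cDC1 value 2.49, 1.56, 2.00 and 2.80. Genes of the other dendritic lists went both ways over the wild type libraries. Sirpa, Ckb, Id2, Cadm1, Snx22, Clec4a2 and Lair1 were highest in wild type 1, as the macrophage list was. Clec4a4, Flt3 and Ly6c2 were lowest in that library. The T cell list was highest in the lane 5 cKO libraries, at 0.32, 1.30 and 1.66 in wild type libraries 1 to 3 and 2.66, 1.19, 0.80 and 2.69 in cKO 1 to 4, and so was the NK list, at 1.16, 1.29 and 1.37 and then 3.01, 2.06, 1.81 and 2.98.

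The genes most like the dendritic profiles were sought among 9430 tested genes by root mean square distance of centred log2 values over the 7 libraries. Nearest to the mean profile of Siglech, Cox6a2 and Pacsin1 were the chemokine receptor gene Ccr9 (0.113), Cd27, a TNF receptor family member of lymphocytes (0.139), and the kinase gene Prkcq, known from T cells (0.153), where the median gene lay at 0.62. That mean joins genes of unlike profile, since Siglech and Pacsin1 were the pair farthest apart, and it leaves out Runx2. Ccr9 stood at 0.298, 0.519 and 0.819 FPKM in wild type libraries 1 to 3 and 2.57, 0.681, 0.513 and 2.08 FPKM in cKO 1 to 4. Nearest to the mean profile of Clec9a and Xcr1 were the growth factor gene Pdgfb (0.078), Itpripl2 (0.103) and Pik3cb, a catalytic subunit of PI3 kinase (0.123), where the median gene lay at 0.68. Ccr9, Cd27, Prkcq, Pdgfb and Itpripl2 had wild type means under 1 FPKM and entered the test through their cKO libraries. Xcr1 and Cox6a2, which are part of the profiles, did so too. These likenesses are therefore a description.

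The authors' deposited table compares arms named q1 and q2, and neither arm is given a genotype there. It holds q under 0.05 and a positive test statistic for 7 of the 10 genes, against 14.1% of the 12100 genes it tested (1.09% had a negative one). In the authors' deposited table the 7 are Siglech, Clec9a, Xcr1, Cd209a, Itgax and Zbtb46, each with q = 0.000796, and Batf3, with q = 0.0226. The genes with q = 0.000796 share the same Cuffdiff p-value (5e-05) in the authors' deposited table, so it does not rank them. The authors' deposited table gives q = 0.0828 for Runx2, 0.901 for Cox6a2 and 0.763 for Pacsin1, the last with a negative statistic. The same libraries lie under both comparisons, so the authors' deposited table is not independent of the values above.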

How the data were processed

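RNA from 4 cKO and 3 wild type libraries was measured, with groups and replicate numbers taken from the sample titles. The authors deposited FPKM with a status for each gene and library, per the file headers. Their Cuffdiff table, also deposited, gives each gene a signed test statistic (a score), p-values and q-values, per the file headers. TopHat2, Cufflinks, Cuffdiff and mm9 are listed in the submitters' processing notes without roles, but positions overlapped the GRCm38 gene for 99.4% of 21320 symbols, so they are given in GRCm38. FPKM do not state depth. The value of 1 fragment was approximated from low values of genes with a single GENCODE M21 transcript, so no counting error is given and errors are SDs between libraries.

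The status was OK throughout for 23508 of 23845 rows. The 10065 rows with a mean of at least 1 FPKM entered limma 3.58.1 (R 4.3.3, lmFit and eBayes with a trend, two-sided, no covariate) as log2(FPKM + 0.5), a scale that understates the change of low genes. Adjustment was by Benjamini-Hochberg over all of them, with a threshold of 0.05. The design spoke of RPKM or FPKM, and the same test was used. The genes and lists were chosen with earlier results of these data known. Genes named were the 10, list genes called or with the 3 smallest p, the 2 most abundant of each other cell type, and the 3 genes most like each of 2 mean profiles. Genes named beyond these (Flt3, Flt3l, Ccr9, Klk1, Klra17, Bcl11a, Tlr9, Slc15a4, Tcf4, Spib, Irf8, Ly6d, Ptcra, Syk, the JUN genes, Ciita, Btla, Ccr6 and the relatives beside each gene) were chosen for their roles after the values were seen. A gene that this rule takes in is not reported here. The fits were tested on simulated data. Alternatives covered pseudocount, filter, limma settings, scaling, lane, each library left out, the replicate block and the threshold. Matplotlib 3.10.9 drew the figures.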

Additional observations from a re-analysis of the deposited data

Results flagged for a closer look

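Of 45 genes checked over the 4 cKO libraries, the 10 dendritic cell subset genes included, 2 had a library well apart from the rest. Chance alone flags about 1 in 20, and neither is a dendritic gene. Tubb1, a platelet gene, reached 47.5 FPKM in cKO 3 against 15.2 to 19.4 elsewhere in the group, which is 0.868 of its range. Cd79b, a B cell gene, reached 775.4 FPKM in cKO 4 against 611.4 to 613.2, which is 0.989 of its range.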

How the results depend on the processing

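For the 10 genes, 297 values of the log2 fold change under other settings were compared with the main ones: 205 kept direction and side of the threshold, 88 kept direction and passed it, and 4 turned direction. The 4 are all of Pacsin1: 0.18 in lane 5 alone and without wild type 1 with the lane term, and 0.06 without cKO 2, with and without the lane term. Leaving out a library without the lane term took it from -0.46 to 0.06. The count of the 9 tested genes called, 0 in the main fit, was 4 with median centring (Clec9a, Xcr1, Batf3 and Zbtb46), 1 with quantile normalization (Batf3), 7 with the lane term, 7 in lane 5 alone, 1 in lane 7 alone, and 7 with the lane term and either scaling. Leaving out each library gave 0 without the lane term and 7 to 8 with it, where 0 to 220 and 709 to 2000 of the 10065 genes tested were called. With the lane term and centring or quantile normalization, 2228 and 1982 of all genes tested were called. Groups without overlap, 4 of the 10 genes, numbered 7 with median centring (21.1% of all genes tested, either direction, against 10.1% in the main setting), 9 in lane 5 (42.8%), 10 in lane 7 (Pacsin1 lower, 73.2%) and 4 to 7 with a library left out (10.9% to 23.7%).

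Calls over all genes, 133 in the main fit, numbered 55 with a pseudocount of 1, 1 without a filter, 0 at a mean of at least 2 FPKM (815 at an unadjusted p under 0.05 in limma), 304 with median centring, 1085 with the lane term, 612 in lane 5, 283 in lane 7, 224 at an adjusted p under 0.1, 2228 with centring and the lane term and 1982 with quantile normalization and the lane term, with a library left out 0 to 220, and 709 to 2000 with the lane term as well (788, 1198 and 804 without wild type 1 to 3, and 1174, 1001, 709 and 2000 without cKO 1 to 4). Calls among the 83 list genes, 5 in the main fit, numbered 0 without a filter and at a mean of at least 2 FPKM, 8 with centring, 3 with quantile normalization, 43 with the lane term, 34 in lane 5, 9 at an adjusted p under 0.1, 46 and 38 with the lane term and centring or quantile normalization, with a library left out 0 to 11, and 34 to 48 with the lane term as well (39, 39 and 38 without wild type 1 to 3, and 44, 43, 34 and 48 without cKO 1 to 4). Settings that join lane and scaling, and the 6 libraries below without the block, were chosen after seeing the data. The cause of these changes was not tested.

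Replicate numbers are shared by the genotypes, but the 3 same-numbered pairs ran on different lanes and their deviations correlated at -0.407, -0.502 and -0.692, so the numbers were not taken to pair libraries. With the replicate block limma called 0 genes over all, 0 of the 9 and 0 of the 83 list genes, with 1161, 2 and 23 at an unadjusted p under 0.05, and the same 6 libraries without the block also gave 0, with 1967, 4 and 30. Depth limits Cox6a2 most, at an estimated 10.3 to 116.4 fragments per library.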
